A study of Mus musculus with 8 samples.

Results

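The kinases of the mitogen-activated protein (MAP) kinase cascade were described in regulatory T cells (Tregs) made from naive splenic CD4+ T cells of mice. They were taken as the genes whose symbol is Map4k, Map3k, Map2k or Mapk followed by a number, which gave 42 of the 28239 genes listed: 5 MAP4K, 18 MAP3K, 7 MAP2K and 12 MAPK. Symbols alone chose these genes, and 34 of the 42 passed the filter for testing, at least 2 CPM (the count over the library's total count) in at least 4 of the 8 libraries. Values are given for 41 of the 42, of which 33 were tested. Naive cells from the spleens of 4 wild-type (WT) mice and 4 mice labelled Alox15-/-, a genotype without the lipoxygenase Alox15, which makes precursors of pro-resolving lipid mediators, were kept for 2 days with IL-2, TGF-β and beads against CD3 and CD28, which all 8 libraries share. This account of the material is that of the study's methods, while the extraction text in the labels speaks of frozen spleens and of RNA from Tregs, and which of them holds for the libraries was not settled by the sources used here. Both groups have the C57BL/6 background in the labels, and the study's methods give an age of 10 to 12 weeks and both sexes for its mice without assigning either to a library. According to the same methods, the WT and the Alox15-/- mice came from different suppliers, so genotype and origin cannot be told apart. The knockout strain is not described as specific to a cell type, and each library is 1 mouse, so the spread is between animals. The comparison of Alox15-/- with WT asks how the transcripts of these kinases differ by this genotype early in Treg differentiation.

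In a MAP kinase cascade, a signal at the membrane is passed down a chain of kinases that phosphorylate each other in order. MAP4Ks act near the receptor and activate MAP3Ks, MAP3Ks phosphorylate MAP2Ks, and MAP2Ks phosphorylate the MAPKs on a threonine and a tyrosine of the activation loop, after which the MAPKs phosphorylate transcription factors and other kinases. The best known end points are the ERK, JNK and p38 MAPKs. In T cells the T cell receptor and CD28 feed into all of these branches, and TGF-β receptors can signal through Map3k7, named TAK1 for its activation by TGF-β. Transcript levels do not show how much of a kinase is phosphorylated.

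MACE sequencing, which reads the 3′ end of transcripts, gave between 3723151 and 9538962 counted reads per library, and levels are given here as CPM after TMM scaling, with the libraries labelled Alox15-/- before WT. The gene that the genotype names went against its label: Alox15 had 255 to 454 reads in the libraries labelled Alox15-/- and 12 to 77 in WT, or 63.4 to 70.2 CPM against 1.87 to 8.98 CPM (log2 fold change 3.65, edgeR quasi-likelihood adjusted p = 1.08e-05). Reads near the 3′ end may lie outside the deleted part and then check nothing, so the groups are called by their labels and every direction below rests on these labels. Labels exchanged between the groups and reads outside the deleted part cannot be told apart here. The summed markers of T cells (3137 to 3646 CPM against 3418 to 3799.6 CPM in WT) and of Tregs (1761 to 1914 CPM against 1803 to 2019 CPM in WT) were present in every library. Within the T cell list Cd4 was lower without overlap, at 209 to 296 CPM against 326 to 350 CPM in WT. Cd3g was higher without overlap, at 151 to 169 CPM against 110 to 139 CPM in WT. Neither passed adjustment (edgeR quasi-likelihood adjusted p = 0.358 and 0.294). The other T cell markers and the Treg markers overlapped between the groups. Markers of other cells were higher in the libraries labelled Alox15-/-: all 5 tested erythroid markers rose, with sums of 903 to 3473 CPM against 33.7 to 122 CPM in WT, as did all 5 tested myeloid markers (43.2 to 322 CPM against 8.83 to 15.1 CPM in WT), 6 of 7 mast cell and basophil markers (132 to 332 CPM against 56.9 to 80.2 CPM in WT), both tested eosinophil markers (19.2 to 68.8 CPM against 1.25 to 10.2 CPM in WT) and all 5 tested NK and gamma-delta T cell markers (88.4 to 158 CPM against 28.8 to 50.1 CPM in WT). The mast cell and basophil marker that did not rise was Kit (log2 fold change -0.039). The tested NK and gamma-delta T cell markers were Trdc, Tcrg-C1, Tcrg-C2, Tcrg-C4 and Klrd1. Below the filter, Ccr3 of eosinophils had a mean of 0.11 CPM against 1.63 CPM in WT. Ncr1 of NK cells had 0.34 CPM against 0.41 CPM in WT, and the other untested markers of these lists had higher means than in WT. Summed B cell markers were 5.53 to 7.52 CPM against 8.27 to 19.2 CPM in WT, and of the 2 tested Ms4a1 fell while Cd79b had a log2 fold change of 0.11. Summed CD8 T cell markers were 12.02 to 21.8 CPM against 21.3 to 31.6 CPM in WT, and no marker of any list was at 0 in all 8 libraries. Their part in the results on the kinases was not tested, and in bulk samples fewer cells of a type cannot be told apart from less RNA per cell.

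Every level of the cascade was transcribed in these cells, with 5 of 5 MAP4Ks, 14 of 18 MAP3Ks, 7 of 7 MAP2Ks and 8 of 12 MAPKs above the filter. Of the 33 tested kinases described, the mean over the 8 libraries was highest for Map2k2, which encodes MEK2, an activator of ERK, at 188 CPM. It was the only 1 of them at or above the 90th percentile of all 12700 genes tested, while the median member had 25.0 CPM, beside 26.5 CPM for the median of all genes tested. The median percentile of level was 70.5 for MAP2Ks, 57.5 for the 7 MAPKs described, 52.6 for MAP4Ks and 40.6 for MAP3Ks. Among the MAP4Ks, Map4k1 (HPK1, a brake on T cell receptor signaling made mainly in blood cells) came first with 108 CPM, before Map4k4 with 89.3 CPM and Map4k2 with 28.8 CPM. Among the MAP3Ks, Map3k7 led with 101 CPM, followed by Map3k1 (MEKK1, a kinase that also carries ubiquitin ligase activity) with 55.4 CPM and Map3k11 (MLK3, a mixed-lineage kinase upstream of JNK) with 35.1 CPM. Map2k2 was followed in its tier by Map2k3 (MKK3, which activates p38) with 98.0 CPM and Map2k1 (MEK1) with 67.2 CPM. Of the 7 MAPKs described, Mapk3 (ERK1) had 65.2 CPM, Mapk14 (p38α) 64.9 CPM and Mapk6 (ERK3) 42.7 CPM.

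A 3′ tag is counted once per transcript, so CPM here are not divided by length. Divided by the length of the annotated transcript, Map4k1, Map3k7 and Map2k2 remained first in their tiers, with 39.5, 17.5 and 78.3 CPM per kilobase. On the per-kilobase scale Map3k1 went from rank 2 to rank 4 of the MAP3Ks and Map3k11 from 3 to 2, while Mapk3 and Mapk14, level by CPM, stood at 36.2 and 18.1 CPM per kilobase. Libraries of a group varied by a coefficient of variation of 15.6% in the median member, beside 14.6% in the median gene tested, so neighbours in this order that are closer than that, such as Mapk3 and Mapk14 by CPM, did not differ beyond their spread.

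**Figure D1:**
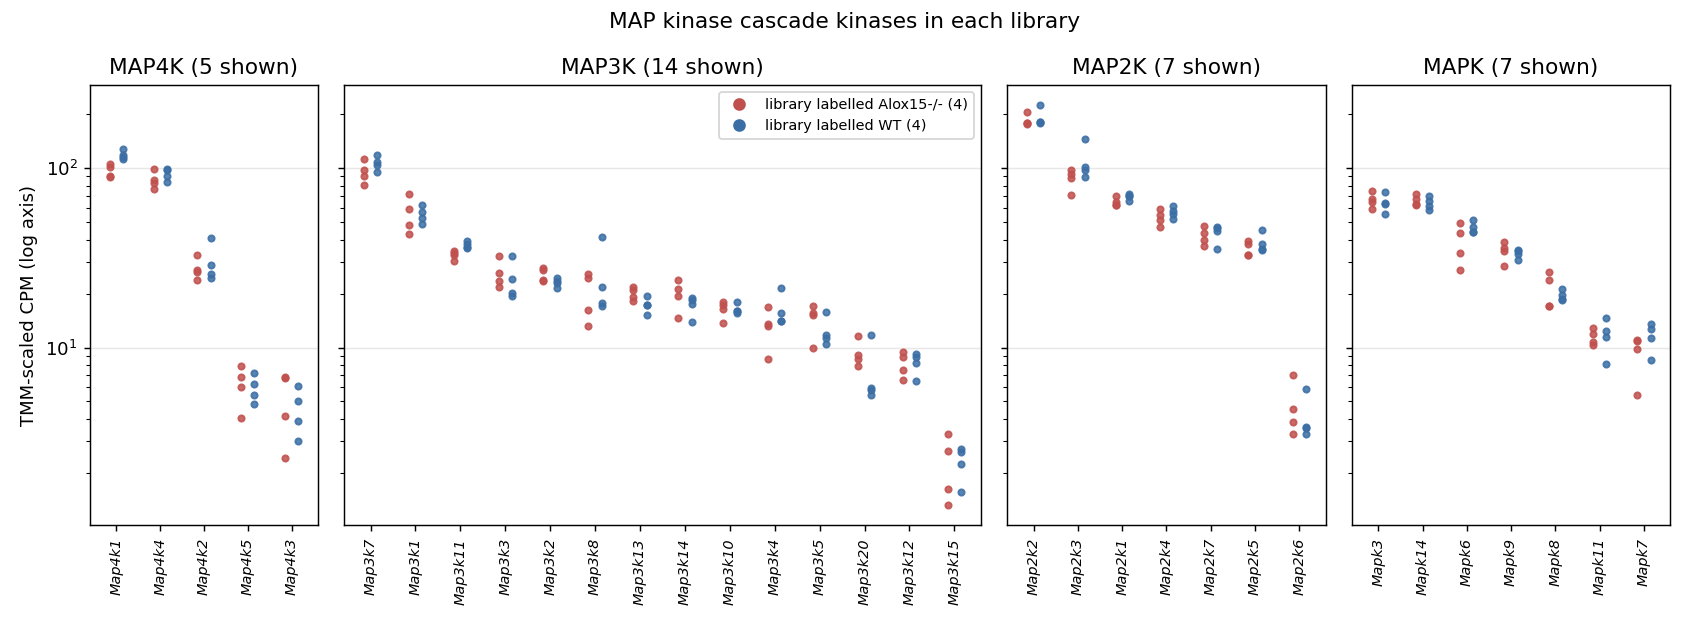
Level of 33 tested MAP kinase cascade kinases, in TMM-scaled CPM on a log axis, in each of the 8 libraries, by tier. Points are libraries, and Map2k2 is the highest while most MAP3Ks lie below 50 CPM.

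The 8 members below the filter were Map3k6, Map3k9, Map3k19, Map3k21, Mapk4, Mapk10, Mapk12 and Mapk13, with 0 to 18 reads in any library. Mapk10 encodes JNK3, which is known from brain, Mapk12 and Mapk13 encode p38γ and p38δ, and Map3k9 and Map3k21 are mixed-lineage kinases. Just inside the filter stood Map3k15 with a fourth-highest level of 2.69 CPM and Map2k6 with 3.91 CPM, and just outside it Map3k9 with 1.44 CPM and Map3k19 with 1.27 CPM, each as a share of the library total.

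Between the groups, 0 of the 33 tested kinases described passed the adjusted threshold of 0.05 (edgeR quasi-likelihood test, smallest adjusted p = 0.294, for Map4k1), beside 158 of 12700 genes tested, or 1.24%. An unadjusted p under 0.05 was found for 1 of the 33, Map4k1, beside 996 of all genes, or 7.84%. Map2k3 and Mapk6 joined it without Alox15-/- 1, Map2k3 without WT 2 and Map3k20 without WT 4, which made 3, 2 and 2 of the 33. DESeq2 and limma-voom also put 0 of the 33 past the adjusted threshold. In 2 of the 33 kinases all 4 libraries of a group lay on the same side of all 4 of the other, Map4k1 and Map3k11, or 6.06% beside 5.25% of all genes tested. Both were lower in the libraries labelled Alox15-/-, a pattern that 2.5% of all genes tested had. Of the 33, 19 had a negative and 14 a positive log2 fold change, with a median of -0.020 beside -0.0073 over all genes tested, and with upper quartile scaling 16 of the 33 were negative. Fold changes ran from -0.34 for Map3k4 to 0.38 for Map3k20, and their median size was 0.12, beside 0.13 for all genes tested. With 1 library left out in turn, the fold change of 16 of the 33 turned sign in at least 1 fit and that of 12 kept its sign but moved by over 1.5 times, while Map4k1, Map3k11, Map3k2, Map3k13 and Map2k1 did neither. For Map4k1 and Map3k11, whose groups do not overlap, the sign could hardly turn in these fits. The 95% intervals of all 33 kinases lay within a 2-fold change in either direction, which held for 90.6% of all genes tested, and those of 22 lay within 1.5-fold. These intervals are not adjusted for the number of genes tested, and that of Map4k1 excluded 0 although Map4k1 did not pass adjustment. They are thus no limit of detection, and changes that reach beyond their width could also be missed at this depth and number of mice.

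**Figure D2:**
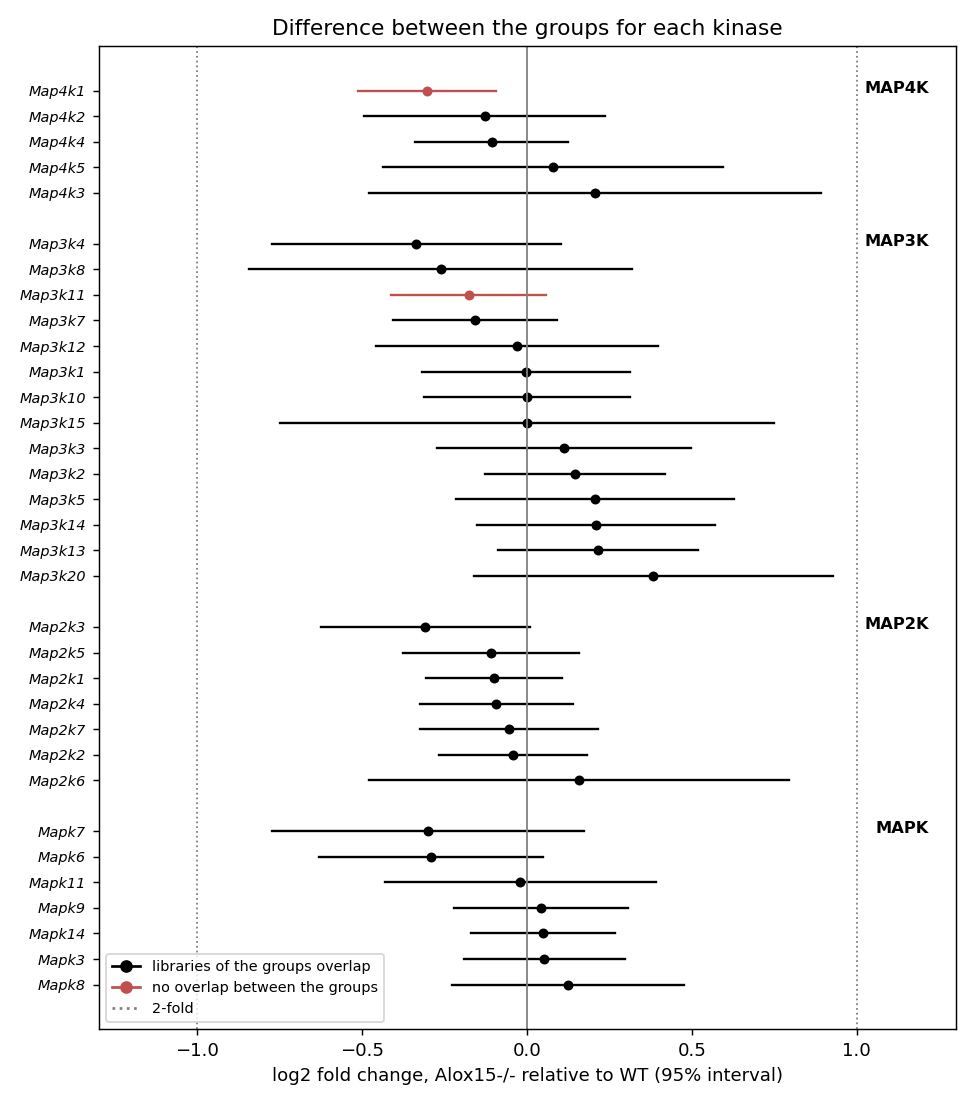
Log2 fold change (Alox15-/- minus WT, by label) of 33 tested kinases with 95% intervals from the edgeR fit, grouped by tier, where a negative value is lower in the libraries labelled Alox15-/-. The interval of Map4k1 does not reach 0, before adjustment, and every interval stays within a 2-fold change.

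Map4k1 had the smallest p of the kinases described. Its levels were 101, 105, 89.5 and 90.02 CPM in the libraries labelled Alox15-/- 1 to 4 and 119, 116, 127 and 113 CPM in WT 1 to 4. The groups did not overlap, with the highest library labelled Alox15-/- below the lowest of WT, and the fitted difference did not pass adjustment (log2 fold change -0.30 ± 0.10 SE, 95% interval -0.51 to -0.10, edgeR quasi-likelihood adjusted p = 0.294). It was lower in each of the 8 fits that left out a library and in each of the 8 other settings, with log2 fold changes from -0.35 to -0.26 and adjusted p from 0.219 to 0.668. These fits reuse the same libraries, and with groups that do not overlap the sign could hardly turn. The constant direction of Map4k1 is therefore no separate support. The gene lies on chromosome 7, 28982050 to 29003279, plus strand of GRCm38. Map4k4 (HGK, a kinase of the same group with wide expression) had 76.1 to 99.0 CPM against 83.6 to 98.4 CPM in WT, with overlapping groups (log2 fold change -0.11). Map4k2 (a kinase that acts upstream of JNK) had 23.9 to 32.9 CPM against 24.4 to 41.0 CPM in WT, also with overlapping groups (log2 fold change -0.13). The fewest reads of the tier fell on Map4k3 (GLK, a kinase of T cell receptor signaling), with 2.43 to 6.87 CPM against 3.03 to 6.08 CPM in WT, and on Map4k5, with 4.05 to 7.93 CPM against 4.83 to 7.17 CPM in WT. A library held 9 to 48 and 15 to 62 reads of these genes. Their log2 fold changes were 0.20 and 0.080, with the 95% intervals -0.48 to 0.89 and -0.44 to 0.60. Summed over the tier, the MAP4Ks came to 206 to 236 CPM in the libraries labelled Alox15-/- and 239 to 277 CPM in WT, without overlap, but without Map4k1 the sums were 109.6 to 146 CPM in the libraries labelled Alox15-/- and 120.1 to 149.6 CPM in WT and overlapped.

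The MAP3K tier had 7 members with a positive and 7 with a negative log2 fold change and a median of -0.00062, which was 0.12 without Alox15-/- 3. Its leading member Map3k7 had 113, 80.4, 90.3 and 97.9 CPM in the libraries labelled Alox15-/- 1 to 4 and 109, 105, 95.6 and 118 CPM in WT 1 to 4. The groups overlapped (log2 fold change -0.16 ± 0.12 SE, 95% interval -0.41 to 0.090, edgeR quasi-likelihood adjusted p = 0.807). Map3k11 had 30.5, 32.9, 33.9 and 34.5 CPM in the libraries labelled Alox15-/- and 36.3, 35.8, 39.2 and 37.8 CPM in WT. Here the groups did not overlap, although the fitted difference had an unadjusted p above 0.05 (log2 fold change -0.18 ± 0.11 SE, 95% interval -0.41 to 0.057, edgeR quasi-likelihood adjusted p = 0.763). It lies on chromosome 19, 5688742 to 5702865, plus strand. Among the MEKK kinases, Map3k1 had 42.8 to 71.8 CPM against 49.0 to 62.6 CPM in WT, and its direction turned with the scaling (log2 fold change -0.0034 with TMM scaling, 0.023 with upper quartile scaling and 0.0015 with DESeq2 size factors). Map3k2 and Map3k3 (MEKK2 and MEKK3) had log2 fold changes of 0.15 and 0.11, of which the one of Map3k3 ran from -0.019 without Alox15-/- 4 to 0.31 without WT 3. Map3k4 (MEKK4, a kinase that GADD45 proteins bind and activate) had the most negative value of all 33, -0.34, at 8.65 to 16.7 CPM against 14.02 to 21.5 CPM in WT with overlapping groups and the 95% interval -0.77 to 0.10. The value was -0.15 without WT 3 and -0.19 without Alox15-/- 1, and in these fits and those without Alox15-/- 4 or WT 4 another kinase had a more negative one.

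Map3k8 (TPL2, which activates MEK downstream of inflammatory receptors) varied most between mice of the tested kinases described. Its levels were 24.5, 13.2, 16.2 and 25.8 CPM in the libraries labelled Alox15-/- and 17.0, 17.7, 21.9 and 41.3 CPM in WT. WT 4 stood above all other libraries, and without it the log2 fold change went from -0.26 to 0.091 (edgeR quasi-likelihood adjusted p = 0.871 and 0.941). Map3k20 (ZAK, the kinase that senses stalled ribosomes) had 8.65, 11.6, 9.03 and 7.87 CPM in the libraries labelled Alox15-/- and 5.93, 5.42, 5.82 and 11.7 CPM in WT. WT 4 was the highest of all 8 here too, while WT 1 to 3 lay below every library labelled Alox15-/-. The log2 fold change was 0.38 with all libraries and 0.68 without WT 4 (edgeR quasi-likelihood adjusted p = 0.782 and 0.260). Map3k14 (NIK, the kinase of the noncanonical NF-κB pathway) had 14.6 to 23.8 CPM against 13.9 to 19.0 CPM in WT, overlapping, with a log2 fold change of 0.21. Map3k5 (ASK1, a kinase activated by oxidative stress) had 9.97 to 17.1 CPM against 10.5 to 15.9 CPM in WT, with a log2 fold change of 0.21, and its relative Map3k15 had 1.32 to 3.29 CPM against 1.56 to 2.71 CPM in WT, near the filter, where the sign changed with the setting. The remaining MAP3Ks, Map3k10, Map3k12 and Map3k13, are kinases of the mixed-lineage and dual leucine zipper families and had log2 fold changes of -0.0013, -0.031 and 0.22 with overlapping groups.

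In the MAP2K tier, 6 of 7 members had a negative log2 fold change, with a median of -0.093 (-0.14 to -0.036 with a library left out), and 0 of 7 reached an unadjusted p under 0.05 in the edgeR fit or had groups without overlap. Map2k1, a MEK kinase that activates ERK, had 62.1 to 70.2 CPM against 66.02 to 71.7 CPM in WT. Its partner Map2k2 had 176 to 207 CPM against 178 to 225 CPM in WT. Their log2 fold changes were -0.10 and -0.043, and the 95% interval of Map2k2 ran from 0.831 to 1.13 times the WT level. Map2k3 had 98.0, 70.7, 92.7 and 87.7 CPM in the libraries labelled Alox15-/- and 98.3, 88.7, 102 and 146 CPM in WT. WT 4 was the highest and Alox15-/- 2 the lowest library, and the groups overlapped (log2 fold change -0.31 ± 0.15 SE, 95% interval -0.63 to 0.0078, edgeR quasi-likelihood adjusted p = 0.655). Without WT 4 the log2 fold change of Map2k3 was -0.14 (adjusted p = 0.817), so its size rested on that library. Map2k6 (MKK6), the other activator of p38, was near the filter with 3.29 to 7.02 CPM against 3.28 to 5.89 CPM in WT and a log2 fold change of 0.16. Map2k4 (MKK4), which activates JNK, had 47.2 to 59.3 CPM against 52.4 to 61.4 CPM in WT, with a log2 fold change of -0.093. Map2k7 (MKK7), the other JNK activator, had 36.7 to 47.5 CPM against 35.4 to 46.8 CPM in WT, with a log2 fold change of -0.056, and both overlapped between the groups. Map2k5 (MEK5), the activator of ERK5, had 32.6 to 39.4 CPM against 34.9 to 45.1 CPM in WT, with a log2 fold change of -0.11. Summed, the MAP2Ks came to 451 to 494 CPM in the libraries labelled Alox15-/- and 484 to 586 CPM in WT, with WT 4 at the top and an overlap between the groups.

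Among the 7 MAPKs described, 4 had a positive and 3 a negative log2 fold change, with a median of 0.042, and the groups overlapped in each. The median was -0.0037 without Alox15-/- 3, -0.016 without Alox15-/- 4, 0.10 without WT 3 and 0.0042 to 0.045 without any other library. Mapk3 (ERK1), which phosphorylates ELK1 and the RSK kinases, had 59.1 to 74.7 CPM against 55.3 to 73.2 CPM in WT and a log2 fold change of 0.052. Mapk8 (JNK1), which phosphorylates c-Jun, had 17.0 to 26.5 CPM against 18.4 to 21.1 CPM in WT and a log2 fold change of 0.12. Mapk9 (JNK2), its paralogue, had 28.6 to 38.6 CPM against 30.7 to 34.9 CPM in WT and a log2 fold change of 0.042, and both overlapped between the groups. Of the p38 genes, Mapk14 had 62.5 to 71.8 CPM against 58.2 to 69.6 CPM in WT (log2 fold change 0.048, 95% interval -0.17 to 0.27). Mapk11 (p38β) had 10.3 to 12.8 CPM against 8.13 to 14.5 CPM in WT (log2 fold change -0.020, with a positive sign of 0.0087 under upper quartile scaling).

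The atypical ERK3 and the large ERK5 had lower means in the libraries labelled Alox15-/-, with overlapping groups. Mapk6 (ERK3, an atypical MAPK that MEK kinases do not activate) had 49.7, 43.7, 27.1 and 33.6 CPM in the libraries labelled Alox15-/- and 51.6, 47.0, 44.2 and 44.3 CPM in WT. Alox15-/- 2, 3 and 4 lay below all WT libraries while Alox15-/- 1 lay above 3 of them (log2 fold change -0.29, 95% interval -0.63 to 0.048), and without Alox15-/- 3 the log2 fold change was -0.15. Mapk7 (ERK5) had 11.1, 5.40, 9.78 and 10.9 CPM in the libraries labelled Alox15-/- and 12.6, 11.3, 13.4 and 8.56 CPM in WT, with Alox15-/- 2 lowest and a log2 fold change of -0.30 (95% interval -0.78 to 0.17), which was -0.14 without Alox15-/- 2. Summed, the 7 MAPKs described came to 237 to 255 CPM in the libraries labelled Alox15-/- and 230.3 to 271 CPM in WT, an overlap of the groups.

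**Figure D3:**
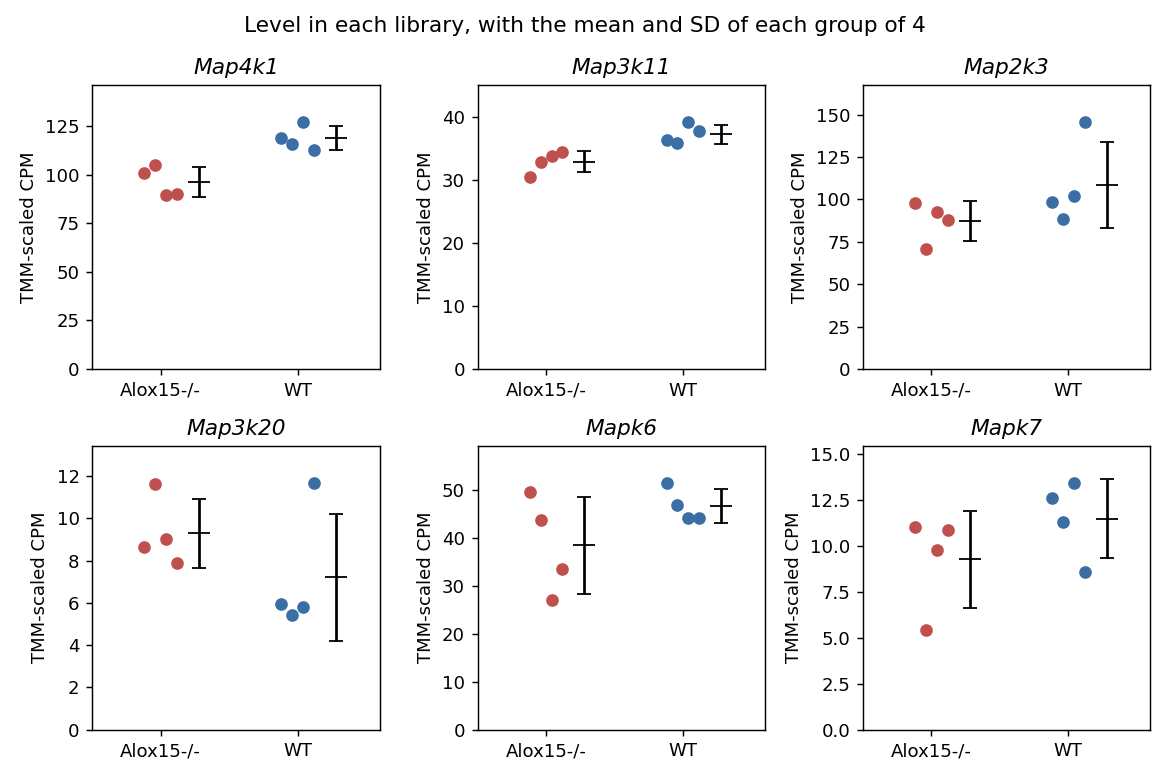
TMM-scaled CPM in each library of selected kinases, points for the 4 libraries labelled Alox15-/- and the 4 labelled WT, with bars at the group mean ± SD. Map4k1 and Map3k11 show no overlap between the groups, and Map2k3 and Map3k20 show WT 4 apart from the other WT libraries.

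Which paralogue supplied most of the transcript of a branch was alike in all 8 libraries. Shares were taken within each library, on the CPM scale. Map2k2 held 71.9 to 76.9% in the libraries labelled Alox15-/- and 71.5 to 76.3% in WT of the MEK1 and MEK2 transcript, and its median was near the same on both scales (73.0% and 73.2%). The p38 branch was mostly Mapk14, at 82.7 to 85.8% in the libraries labelled Alox15-/- and 81.1 to 87.6% in WT, with Mapk11 at a median of 15.6% and Mapk12 and Mapk13 each below 1.1% in every library. Its activators were mostly Map2k3, at 91.0 to 96.4% in the libraries labelled Alox15-/- and 93.8 to 97.6% in WT. In the JNK branch Mapk9 (JNK2) exceeded Mapk8 (JNK1) in every library, with medians of 61.8% and 37.1%, and Mapk10 at 0.648%. The JNK activators Map2k4 and Map2k7 were nearer to each other, with Map2k4 at 53.7 to 58.3% in the libraries labelled Alox15-/- and 53.1 to 61.9% in WT. Of the MLK and DLK transcript, Map3k11 held 35.5 to 39.2% in the libraries labelled Alox15-/- and 40.7 to 46.3% in WT, the only 1 of the 32 shares taken whose groups did not overlap. Shares of a sum depend on each other, and no test was made of them.

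**Figure D4:**
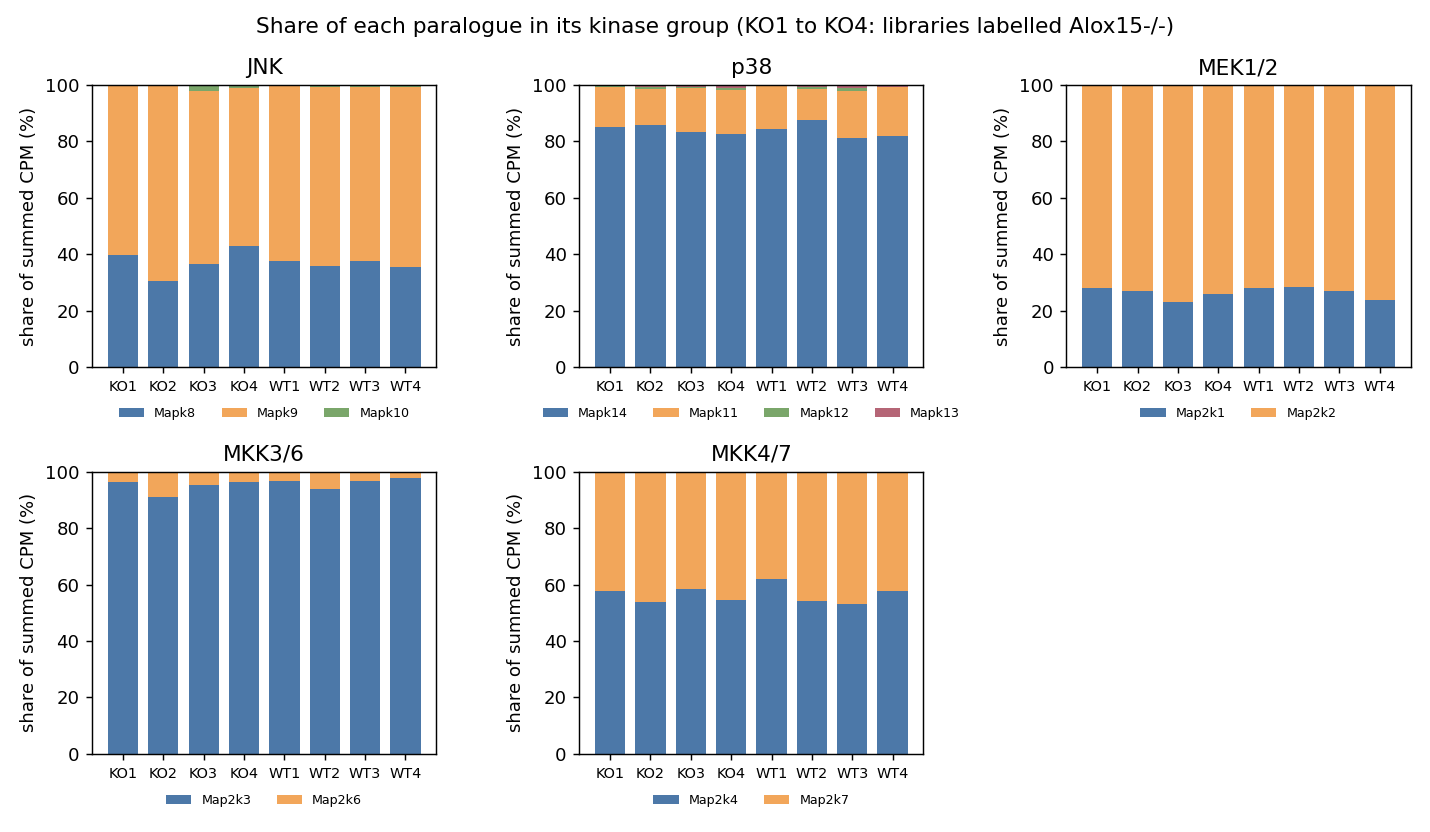
Share of each paralogue in the summed TMM-scaled CPM of its kinase group, in percent, for the JNK, p38, MEK, MKK3/6 and MKK4/7 groups in each library (KO1 to KO4 are the libraries labelled Alox15-/-). Mapk9, Mapk14, Map2k2, Map2k3 and Map2k4 hold the larger share in every library.

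Of the 33 tested kinases described, 3 lie within 20 Mb of Alox15 on chromosome 11, where a knockout strain may carry sequence of another strain. Map2k4 is 4.61 Mb, Mapk7 8.86 Mb and Map2k3 9.41 Mb from it, between gene centers. Each had a negative log2 fold change (-0.093, -0.30 and -0.31) with overlapping groups, where 19 of the 33 and 51.8% of all genes tested were negative. The tested members farther away on chromosome 11 had positive values. These were Mapk9 at 20.5 Mb (0.042), Map3k14 at 32.9 Mb (0.21), Map3k3 at 35.8 Mb (0.11) and Map2k6 at 40.1 Mb (0.16). Whether the sequence around Alox15 differs between the groups was not tested. Near-identical copies of the 3′ ends of the kinases described were searched in the annotated transcripts, with 0 found at 90% identity over 200 of the last 500 bases. For 7 of the tested members another gene overlaps the last 1000 bases: Map2k7 on its own strand, and Map3k10, Map3k12, Map3k15, Map4k2, Map4k5 and Mapk7 on the opposite strand. Whether the authors' counting used strand is not given in the sources used here, so the counts of these 7 are uncertain, while Map4k1 and Map3k11 have no such neighbour.

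The other genes of the pathway were followed through 7 lists written from gene names, 88 genes in all, of which 76 were tested. In the edgeR fit 0 of the 76 passed the adjusted threshold, beside the same 1.24% of all genes, and 38 had a positive and 38 a negative log2 fold change (33 to 48 negative with a library left out), while 12 of the 76 had an unadjusted p under 0.05, beside 7.84% of all genes tested. Of RAS proteins and the exchange factors that load them, 11 were tested with a median log2 fold change of -0.019, which was 0.053 without Alox15-/- 3, 0.052 without Alox15-/- 4, 0.022 without WT 4, 0.00032 without WT 2 and 0.0094 with upper quartile scaling, and the smallest p values belonged to the exchange factors Rasgrp4 (-0.45 ± 0.15 SE, adjusted p = 0.308) and Sos1 (0.28 ± 0.15 SE, adjusted p = 0.694). The RAS GTPase-activating proteins, which switch RAS off, had 7 of 8 positive values, with Rasa3 at a log2 fold change of 0.25 ± 0.20 SE, adjusted p = 0.828, and Rasal3 had the negative one (-0.26 ± 0.10 SE, adjusted p = 0.469). Cascade kinases under other symbols, such as the RAF kinases, had 5 positive and 4 negative values, with Braf at -0.23 ± 0.14 SE, adjusted p = 0.756 and Araf at -0.15 ± 0.11 SE, adjusted p = 0.806. Scaffolds and adaptors had 8 positive and 7 negative values, and the smallest p values were those of Gadd45g (0.88 ± 0.30 SE, adjusted p = 0.358), an activator of Map3k4, and of Tab3 (-0.46 ± 0.19 SE, adjusted p = 0.569), a partner of Map3k7.

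Downstream of the MAPKs, 7 of 10 tested MAPK-activated kinases had negative values (6 with upper quartile scaling or DESeq2 size factors), with Mapkapk3 at -0.32 ± 0.14 SE, adjusted p = 0.573 and Rps6ka1 at -0.23 ± 0.11 SE, adjusted p = 0.616. Their summed level was 935 to 993 CPM against 1069 to 1102 CPM in WT, with no overlap between the groups, a sum for which no test was made. Each of the 10 tested genes overlapped between the groups by itself, and the sums of all other pathway lists overlapped too. The transcription factors that MAPKs phosphorylate had 7 positive and 7 negative values (11 of 14 negative without Alox15-/- 1, 10 without WT 2 and 5 without WT 4), with Ddit3 at 0.32 ± 0.19 SE, adjusted p = 0.738 and Elk3 at -0.22 ± 0.14 SE, adjusted p = 0.767. MAPK phosphatases, which remove the activating phosphates, held 5 of the 12 unadjusted p under 0.05, among 9 tested and beside 7.84% of all genes tested, 3 with positive and 6 with negative values (5 with upper quartile scaling). Dusp10, which acts on p38 and JNK, had a positive value (0.53 ± 0.14 SE, adjusted p = 0.140) and Dusp16, which acts on JNK, a negative one (-0.61 ± 0.22 SE, adjusted p = 0.408), and neither passed adjustment in the edgeR fit. The other 3, named after their values were seen, were Dusp1 (-0.50 ± 0.23 SE, adjusted p = 0.636), Dusp4 (-0.51 ± 0.23 SE, adjusted p = 0.617) and Dusp5 (-0.51 ± 0.24 SE, adjusted p = 0.636), phosphatases that MAPK signaling itself induces. Their groups overlapped, with Dusp1 at 25.0 to 44.2 CPM against 33.1 to 70.8 CPM in WT. Dusp4 had 31.6 to 58.5 CPM against 51.7 to 109 CPM in WT, and Dusp5 72.1 to 121 CPM against 76.5 to 211 CPM in WT. Of the tested phosphatases left, Dusp2 and Dusp7 had negative values (-0.19 and -0.020), and Dusp6 and Ptpn7 positive ones (0.14 and 0.017). With no filter on low counts Dusp1, Dusp4 and Dusp5 passed the adjusted threshold (adjusted p = 0.0227, 0.00584 and 0.00129), and in the other 15 alternatives they did not. The 5 became 2 without Alox15-/- 2, Alox15-/- 3 or WT 4 and 3 without Alox15-/- 4 or WT 1, and it was 2 with upper quartile scaling, limma-voom or the robust quasi-likelihood fit, 3 with DESeq2 or its size factors and 7 of 13 with no filter. Over all pathway genes the 12 became 7 without Alox15-/- 2, 6 without Alox15-/- 3, 8 without Alox15-/- 4, WT 1 or WT 4 and 9 to 12 without any other library.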

How the data were processed

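MACE-Seq libraries of Tregs from 4 WT and 4 Alox15-/- mice were deposited by the authors as a table of raw read counts per gene symbol, not normalized. The submitters' processing notes name Bowtie, edgeR and GRCm38, while counting and strand settings are not given in the sources used here. The labels name a small RNA kit and frozen spleens where the study's methods name MACE-Seq and cultured Tregs. Column totals were 3723151 to 9538962 counts. Raw counts were filtered (at least 2 CPM in at least 4 libraries, as in the study's methods, leaving 12700 genes), scaled by TMM and fitted with the quasi-likelihood test of edgeR 4.0.16 in R 4.3.3 by group alone, two-sided, with Benjamini-Hochberg adjustment over all genes tested. Standard errors and intervals came from the fit's weights and moderated dispersion. The script was tested on simulated data. Alternatives used DESeq2 1.42.0, limma-voom 3.58.1, other scalings and filters, a replicate block and each library left out.

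Same-numbered libraries of the groups deviated from their group means with correlations of 0.069, 0.17, -0.18 and -0.018, so the numbers were not treated as pairs. Positions and transcript lengths came from GENCODE on GRCm38, and 3′ ends were searched with blastn 2.17.0. The members and lists were chosen with earlier results of these data known. Genes named were Alox15, members with an unadjusted p under 0.05 or groups without overlap, the 3 highest of each tier, members within 20 Mb of Alox15, the ERK, JNK and p38 genes, the members nearest the filter on each side, members past the threshold in any alternative, and, of each list, those past the threshold or the 2 with the smallest p. The other members were named to account for all those described, and Dusp1, Dusp4 and Dusp5 were named after their values were seen. Of the 42 members, 1 is not reported here.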

Additional observations from a re-analysis of the deposited data

Results flagged for a closer look

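In 66 groups of 4 libraries (33 kinases in each group), the distance of the highest or lowest library from its nearest neighbour was compared with the range of the group, and 4 values stood apart by Dixon's criterion at the 95% level, or 6.06%, where chance gives about 1 in 20. Map2k2 reached 207 CPM in Alox15-/- 3, beside 176 to 179.7 CPM in the others of that label, and 225 CPM in WT 4, beside 178 to 181 CPM in the other WT libraries. Map3k20 had 11.7 CPM in WT 4, beside 5.42 to 5.93 CPM in WT 1 to 3. Map2k6 had 5.89 CPM in WT 2, beside 3.28 to 3.61 CPM in the other WT libraries. Of these 4 values 2 belonged to WT 4, and no cause was tested.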

How the results depend on the processing

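In all 16 alternatives 0 of the kinases described passed the adjusted threshold, with a smallest adjusted p of 0.219 (Map4k1, DESeq2). The number with an unadjusted p under 0.05 was 1, and 3 with no filter, 2 with limma-voom and 1 to 3 with a library left out. With a library left out the median log2 fold change ran from -0.0099 to 0.12 for MAP3Ks, -0.19 to 0.078 for MAP4Ks, -0.14 to -0.036 for MAP2Ks and -0.016 to 0.099 for the 7 MAPKs described. All genes past the threshold numbered 158, and 388 with no filter (with Dusp1, Dusp4 and Dusp5 among them), and 86 to 173 with a library left out. With the replicate block the number of kinases past the adjusted threshold was 0, 3 had an unadjusted p under 0.05, and 146 genes in all passed.

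Of 304 log2 fold changes of 19 named kinases over the alternatives, 276 kept their sign and 28, of 9 kinases, turned. Map3k1 was at 0.0015 with DESeq2 size factors, 0.023 with upper quartile scaling and 0.0032 with DESeq2. Map3k15 was at -0.025 with no filter, -0.0021 with filterByExpr, -0.0070 with DESeq2, -0.043 with limma-voom and -0.084 with the replicate block. Mapk11 was at 0.0087 with upper quartile scaling. With a library left out the values ran from -0.095 to 0.048 for Map2k2, -0.077 to 0.38 for Map2k6, -0.15 to 0.11 for Map3k1, -0.31 to 0.20 for Map3k15, -0.23 to 0.078 for Map4k2, -0.16 to 0.13 for Mapk11, -0.0051 to 0.13 for Mapk3, -0.016 to 0.22 for Mapk8 and -0.012 to 0.13 for Mapk9. The cause was not tested. The fits without a library for the pathway lists were chosen after seeing the data. Members below about 10 CPM rest on few reads.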

Other observations

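Summed over the 33 tested kinases described, the libraries labelled Alox15-/- held 1263 to 1372 CPM and WT 1329 to 1465 CPM, with WT 4 highest and an overlap between the groups. WT 4, WT 3 and Alox15-/- 1 each had the highest of the 8 values for 6 kinases, and Alox15-/- 2 had the lowest for 9 and Alox15-/- 3 for 6. Alox15-/- 2, the library with the fewest counted reads (3723151), also had the highest value for 5 kinases, and Alox15-/- 3 for 2. Alox15-/- 2 and 3 were also the libraries with the highest summed erythroid markers, 3299 and 3473 CPM, beside 1091 and 903 CPM in Alox15-/- 1 and 4, and the part of this in the kinase levels was not tested.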
